A study of Mus musculus with 12 samples.

Results

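The interleukin 1 family and its antagonists were followed here through 8 genes, Il1a, Il1b, Il1rn, Il1f6, Il1f9, Il18, Il33 and Il1r2, in mouse dendritic cells exposed to polymer nanoparticles. The members were taken from a fixed list of symbols, and their probes were those whose RefSeq accession matched the symbol. It held 8 of the 16358 named genes on the array and 11 of its 41174 probes, and all 8 genes passed the filter on dim probes and were tested. Il1a, Il1rn and Il1r2 had 2 probes each.

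The cells were bone marrow-derived dendritic cells of female mice aged 6 to 8 weeks, grown with the cytokine GM-CSF at 20 ng/ml and taken on day 7 as immature, non-adherent or loosely adherent cells. All exposed cultures received 300 µg/ml of γ-PGA NPs, nanoparticles built from the biodegradable polymer poly(γ-glutamic acid), for 6, 12 or 24 h. The 0 h group stood for the start of the exposure, and there were 3 samples in each of the 4 groups, from independent experiments according to the series design. No culture kept for 6, 12 or 24 h without particles was among the samples, so the effect of the particles and of time in culture cannot be told apart. The mouse strain was not given in the labels. Total RNA was labelled with Cy3 and hybridised to 12 Agilent 1-colour arrays, whose number limits the precision of every value below. Fewer cells of a type and less RNA per cell cannot be told apart in such bulk samples.

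Interleukin 1 alpha and beta are inflammatory cytokines that act through the same receptor, IL1R1 with its partner IL1RAP, and the adaptor MYD88. Il1rn encodes the receptor antagonist, which occupies IL1R1 without signalling, and Il1r2 encodes a decoy receptor, which binds the cytokine without passing on a signal. Il1f6 and Il1f9 are the older names of Il36a and Il36g, cytokines that act through IL1RL2. Interleukin 18 acts through IL18R1 and IL18RAP and is held in check by the soluble binder IL18BP, and interleukin 33 acts through ST2, the product of Il1rl1. The precursors of interleukins 1 beta and 18 are cut by caspase 1 in inflammasomes before release, so a transcript level alone does not give the amount of active cytokine. Dendritic cells are a known source of several of these cytokines after microbial stimulation.

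Values came from 2 sources. Scanner values are log2 processed signals minus the 75th percentile of the array, so 0 means a signal equal to that percentile, and they are levels of a probe that can be compared between arrays but not between probes. The authors' deposited table holds linear ratios to the median of the 3 columns labelled 0 h, and no source used here says whether its columns were scaled to each other. Some genes differed between the sources at 6 and 12 h. At 12 h, Il18 changed by 2.59 on the log2 scale in the scanner values and by -0.03 in the table. The agreement of the sources over all genes at these times was not measured. For 24 h the sources disagreed as a whole. The scanner arrays labelled 24 h correlated at a mean r of 0.991 with those labelled 0 h, against 0.923 with 6 h and 0.91 with 12 h (r across genes, which are not independent replicates). No 2 arrays held identical signals. In the table the columns labelled 24 h correlated at 0.896 with 12 h and 0.742 with 6 h. Scanner results are therefore given as those of "the arrays labelled 24 h", and the table's values stand beside them for every member. Leaving the arrays or columns labelled 24 h out of the fit, a check added after the values were seen, left the counts of members called at 6 h and 12 h at 8 and 8 in the scanner values and at 5 and 6 in the table.

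The DNA just upstream of the start sites of Il1a, Il1b and Il1rn is shown because the 2 agonists and their antagonist rose together at 6 and 12 h in both sources. Each line holds the 250 bases before the RefSeq start site of assembly GRCm38.p6, read 5′ to 3′ on the strand of the gene, and capitals mark matches to the motifs searched. The window of Il1a is chr2:129309973-129310222, minus strand, that of Il1b is chr2:129371140-129371389, minus strand, and that of the most upstream Il1rn start site is chr2:24336610-24336859, plus strand.
Il1a: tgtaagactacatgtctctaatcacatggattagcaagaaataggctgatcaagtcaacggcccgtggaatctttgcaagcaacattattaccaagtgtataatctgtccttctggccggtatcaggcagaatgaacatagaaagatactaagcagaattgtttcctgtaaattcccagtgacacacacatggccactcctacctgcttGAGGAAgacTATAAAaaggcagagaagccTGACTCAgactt
Il1b: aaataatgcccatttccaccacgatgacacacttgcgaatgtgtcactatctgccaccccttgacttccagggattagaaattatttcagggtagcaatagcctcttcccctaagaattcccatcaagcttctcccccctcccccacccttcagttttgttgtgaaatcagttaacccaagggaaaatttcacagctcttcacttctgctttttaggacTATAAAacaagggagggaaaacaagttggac
Il1rn: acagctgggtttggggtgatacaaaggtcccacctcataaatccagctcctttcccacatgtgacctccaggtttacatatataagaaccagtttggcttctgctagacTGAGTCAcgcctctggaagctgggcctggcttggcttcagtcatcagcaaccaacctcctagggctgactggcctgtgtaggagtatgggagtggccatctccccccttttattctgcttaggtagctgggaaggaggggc
The search covered both strands for the AP-1 motif TGANTCA, the core GAGGAA bound by the myeloid factor PU.1, the TATA box TATAAA and the kappa B consensus. Il1a held a TATA match 32 to 27 bases before its start, an AP-1 match 12 to 6 bases before it and the PU.1 core 41 to 36 bases before it, with no overlap among the 3. Il1b held a TATA match 31 to 26 bases before its start. The upstream Il1rn site held no TATA match and an AP-1 match 141 to 135 bases before its start. Il1f9 held the PU.1 core. Il18 held a TATA match on the opposite strand, 175 to 170 bases before its start. Both Il33 start sites held a TATA match, 203 to 198 bases before the first and 29 to 24 bases before the second. The counts that follow take a match at any position in the window. Over the 10 start sites of the 7 members that the promoter table lists, 5 held TATA, 2 AP-1, 2 the PU.1 core and 0 the kappa B consensus. Over all 32851 promoter windows of the same 250 bases, these were found in 12.4%, 6.75%, 23.3% and 7.25%. A match is a description of these letters and not a binding site.

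After 6 h the scanner values showed rises of the cytokine and antagonist genes. Of 8 members, 7 were called higher and 1, the decoy receptor gene Il1r2, lower (a change of 2-fold or more with a limma p under 0.05 after Benjamini-Hochberg adjustment over the 18392 genes tested), where 26.1% of all genes were called. The counts at 12 h were again 7 higher and 1 lower, against a background of 30.6%. Il1f6 and Il33 were not well above background on any 0 h array and passed the filter on dim probes only through the 6 and 12 h arrays, so a difference from 0 h was fixed by that filter. Of the 6 members measured at 0 h, 5 were higher and 1 lower at each time. In the authors' deposited table, the same test called 5 of 8 members at 6 h, all higher, against 25.1% of all genes called and 13.3% called higher, and 5 higher and 1 lower at 12 h, against 27.8%. Of the 6 members measured at 0 h, the table called 4 higher and 0 lower at 6 h, and 4 higher and 1 lower at 12 h. Il1a, Il1b, Il1rn, Il1f6 and Il1f9 rose at both times in both sources. Il18 and Il33 rose in the scanner values and were not called in the table. The median log2 change of the 6 members measured at 0 h was 3.24 at 6 h and 3.53 at 12 h in the scanner values, against -0.06 and -0.03 over all genes. In the table the median was 2.93 and 2.30, for the 8 members as for the 6, against 0.14 and 0.22 over all genes.

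Il1a, the agonist kept largely inside the cell until damage releases it, rose steeply and was measured above background at both ends. Its scanner values were -2.14, -2.03 and -2.16 at 0 h, then 6.79, 6.60 and 6.66 at 6 h, 6.61, 6.77 and 6.63 at 12 h, and -1.98, -2.06 and -2.18 on the arrays labelled 24 h. The 6 and 12 h arrays were high without overlap with the others, and the arrays labelled 24 h overlapped those of 0 h. The log2 change was 8.79 at 6 h (SE 0.0727, n = 3 against 3, adjusted p = 4e-13 by limma), a 443-fold rise, and 8.78 at 12 h (SE 0.0727, adjusted p = 3.7e-13), with no difference called between the 2 times. With normexp background correction, which lifts dim signals, the log2 changes were 7.79 and 7.80. The second Il1a probe gave 8.68 and 8.70.
The deposited ratios of Il1a were 1.13, 0.976 and 1 at 0 h, 68.7, 62.1 and 59.6 at 6 h, 42.9, 42.4 and 37.5 at 12 h, and 18.3, 17.9 and 18.5 at 24 h. Here each later group lay below the one before it after the peak at 6 h, and all 3 stayed above 0 h. The log2 changes against 0 h were 5.94, 5.30 and 4.14 at 6, 12 and 24 h (SE 0.0782 each).

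Il1b, the secreted agonist, was well above background in immature cells and reached the ceiling of the scanner. Its scanner values were 3.23, 3.19 and 3.24 at 0 h, 7.29, 7.17 and 7.42 at 6 h, 7.45, 7.57 and 7.35 at 12 h, and 3.21, 3.26 and 3.32 on the arrays labelled 24 h. The probe was saturated on all 3 arrays of 6 h and all 3 of 12 h, so its change is a bound: Il1b was at least 16.9-fold higher at 6 h (adjusted p = 2.6e-11 by limma) and at least 18.9-fold higher at 12 h (adjusted p = 1.33e-11). Such bounds set the mean of the bright group, saturated spots at their value, against the mean of the dim group, and the order of 6 and 12 h cannot be read from saturated spots.
The deposited ratios of Il1b were 1, 0.989 and 1.02 at 0 h, 29.1, 26.9 and 26.9 at 6 h, 18.4, 18.6 and 18.0 at 12 h, and 6.63, 6.13 and 6.70 at 24 h. The groups did not overlap and the ratio was highest at 6 h. The table marks no saturation and lists the same probe and samples. Whether its ratios were made from these scans is not known, since the sources disagreed at 24 h. It therefore cannot be told whether saturation affected the table's order of 6 and 12 h. The log2 changes against 0 h were 4.78, 4.19 and 2.69 (SE 0.0512 each).

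**Figure D1:**
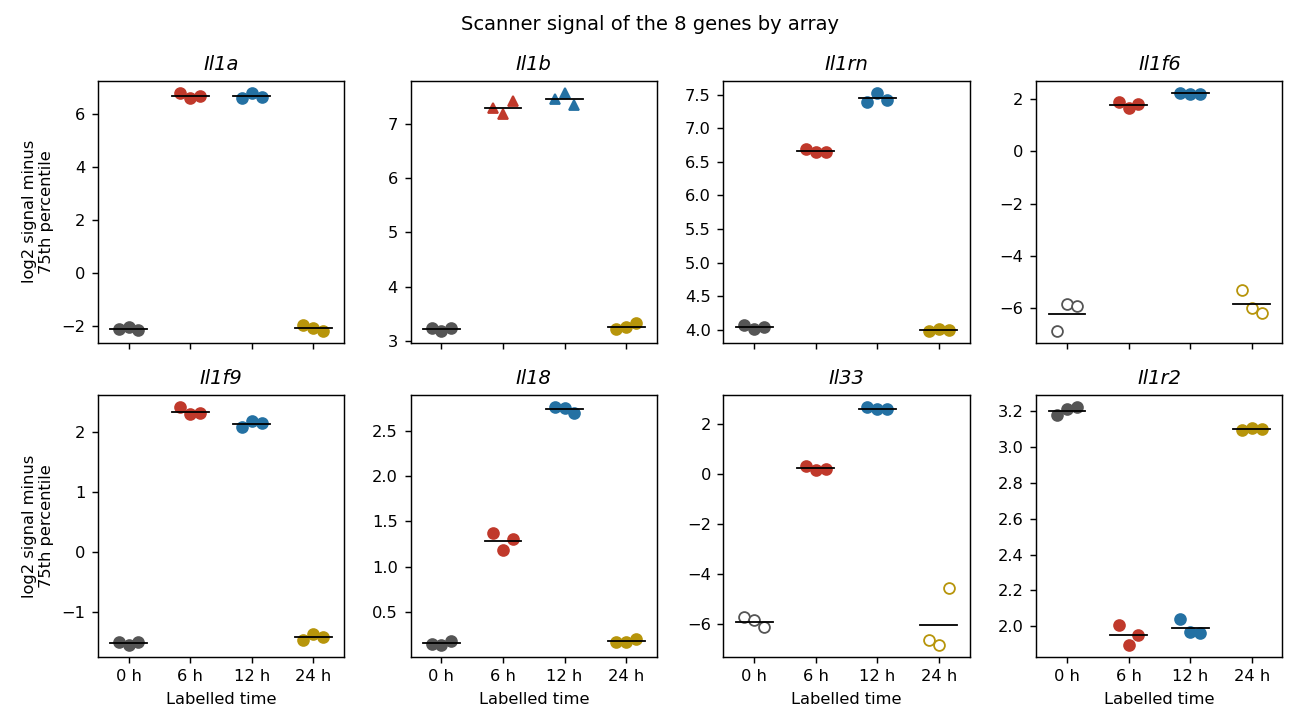
Scanner values of the 8 genes by labelled time, 1 point per array and a bar at the group mean, as log2 signal minus the 75th percentile of the array. Open points are arrays on which the probe was not well above background and triangles are saturated spots; each panel has its own axis. The 7 cytokine and antagonist genes are high at 6 and 12 h, Il1r2 is low there, and the arrays labelled 24 h sit near those of 0 h.

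Il1rn, the receptor antagonist, rose with the agonists but by less. Its scanner values were 4.07, 4.01 and 4.04 at 0 h, 6.68, 6.64 and 6.65 at 6 h, 7.39, 7.53 and 7.42 at 12 h, and between 3.99 and 4.02 on the arrays labelled 24 h. The 12 h arrays were above those of 6 h without overlap. The rise was 6.13-fold at 6 h (log2 2.62, SE 0.0423, adjusted p = 1.65e-11 by limma) and 10.6-fold at 12 h (log2 3.40, SE 0.0423, adjusted p = 2.42e-12). The second, dimmer Il1rn probe gave log2 changes of 2.70 and 3.44, so the step from 6 to 12 h did not rest on the brighter probe.
The deposited ratios of Il1rn were 0.975, 1 and 1.04 at 0 h, 6.63, 5.83 and 5.86 at 6 h, 4.33, 4.41 and 4.38 at 12 h, and 3.65, 3.52 and 3.72 at 24 h. The order of 6 and 12 h was thus the opposite of that in the scanner values. The 12 h minus 6 h log2 difference was 0.79 in the scanner values (adjusted p = 2.3e-07) and -0.48 in the table (adjusted p = 8.47e-05), both under 2-fold and neither called.

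Il1r2, the decoy receptor, was the member that fell. Its scanner values were 3.18, 3.21 and 3.22 at 0 h, 2.01, 1.90 and 1.95 at 6 h, 2.04, 1.97 and 1.96 at 12 h, and 3.10, 3.11 and 3.10 on the arrays labelled 24 h. It fell by 1.25 on the log2 scale at 6 h (SE 0.040, adjusted p = 1.21e-09 by limma) and by 1.21 at 12 h (SE 0.040, adjusted p = 1.1e-09), and the second probe fell by 1.18 and 1.17. The deposited ratios were 0.957, 1 and 1.10 at 0 h, 0.636, 0.559 and 0.575 at 6 h, 0.151, 0.164 and 0.153 at 12 h, and 0.0853, 0.0865 and 0.0903 at 24 h. In the table the level dropped at each step, and the groups did not overlap. The log2 change in the table was -0.79 at 6 h, under 2-fold and not called, -2.71 at 12 h and -3.54 at 24 h (SE 0.0699 each).

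Whether agonist and antagonist transcripts changed by unequal amounts was asked within each sample, by taking the log2 value of the agonist minus that of Il1rn and subtracting the 0 h mean. For Il1a the scanner differences were 6.25, 6.11 and 6.17 at 6 h, 5.37, 5.40 and 5.36 at 12 h, and 0.18, 0.07 and -0.03 on the arrays labelled 24 h. Il1a thus rose 72.3-fold more than Il1rn at 6 h and 41.6-fold more at 12 h. In the table the mean excess of Il1a was 3.34, 3.19 and 2.29 on the log2 scale at 6, 12 and 24 h. Each of these 5 mean differences had an exact two-sided permutation p of 0.1, the smallest that 3 against 3 samples can give, while the scanner difference at 24 h had p = 0.5.
For Il1b the scanner excess over Il1rn was at least 2.75-fold at 6 h and at least 1.78-fold at 12 h, bounds because Il1b was saturated, and on the arrays labelled 24 h it was 0.08 on the log2 scale. In the table the Il1b excess was 2.18, 2.07 and 0.84 at 6, 12 and 24 h. The table marks no saturation. Its excess at 6 and 12 h is for the probe that was saturated on the scanner arrays, and it may be a bound too. All 6 Il1b comparisons had an exact p of 0.1, again the smallest possible. In both sources the rise of both agonists since 0 h exceeded that of the antagonist at 6 and 12 h by more than the spread between samples. Which transcript was more abundant cannot be read from different probes. Adjusted over the 12 comparisons by the Benjamini-Hochberg method, the p-values were 0.109 for 11 of them and 0.5 for the other.

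**Figure D2:**
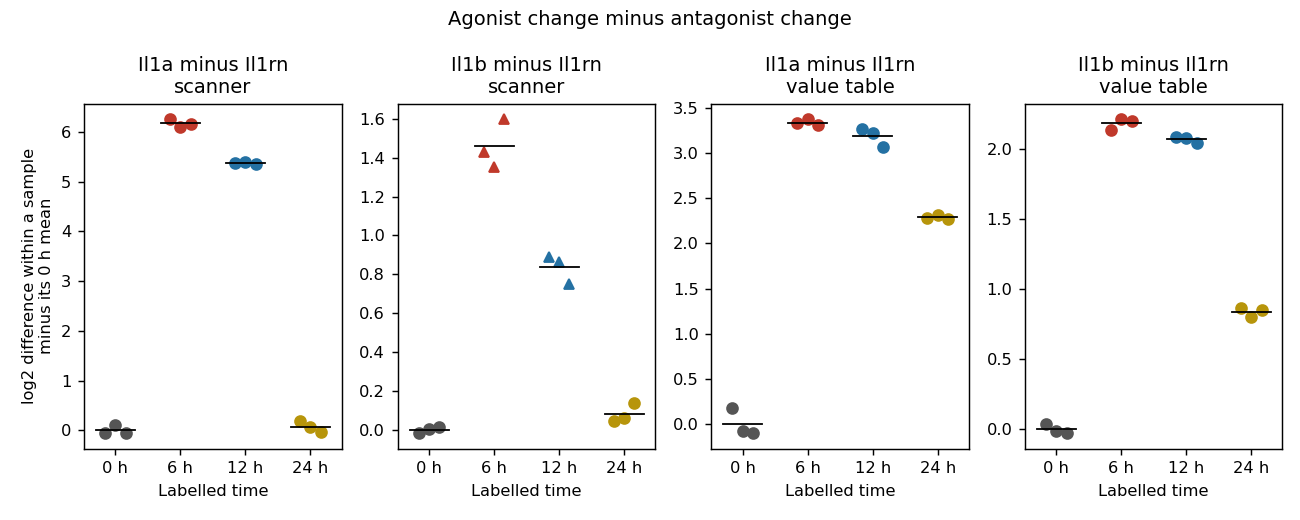
Log2 value of Il1a or Il1b minus that of Il1rn within each sample, with the 0 h mean of that difference subtracted, for both sources; points are samples, bars are group means, and triangles mark samples in which Il1b was saturated. The Il1a difference in the scanner values lies between 6.11 and 6.25 at 6 h and between 5.36 and 5.40 at 12 h.

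The interleukin 36 genes rose with the interleukin 1 agonists. Il1f6 (Il36a) was not well above background on any array of 0 h or on any labelled 24 h. Its scanner values were 1.91, 1.66 and 1.80 at 6 h and 2.24, 2.21 and 2.20 at 12 h, all well above background. Set against the lowest detected signal of the 0 h arrays, Il1f6 was at least 78.2-fold higher at 6 h (adjusted p = 2.18e-09 by limma) and at least 105-fold higher at 12 h (adjusted p = 1.08e-09). These p-values come from the fit to the measured values, which were background at 0 h, and not from the bounds. The filter on dim probes fixed a difference from 0 h in advance, so the p-values add no support. The measured values were -6.85, -5.83 and -5.91 at 0 h and -5.30, -5.98 and -6.16 on the arrays labelled 24 h.
The deposited ratios of Il1f6 were 3.10, 1 and 0.85 at 0 h, 151, 134 and 123 at 6 h, 48.0, 48.1 and 47.0 at 12 h, and 3.34, 4.98 and 5.38 at 24 h. The peak at 6 h stood clear of all other columns, and the lowest 24 h ratio lay just above the highest at 0 h. The log2 change was 6.62, 5.11 and 1.70 at 6, 12 and 24 h (SE 0.405 each). The 24 h call was lost with quantile normalization of the columns (0.88, adjusted p = 0.381) and with slide as a block (1.96, adjusted p = 0.163).

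Il1f9 (Il36g) was measured above background on all 12 arrays. Its scanner values were -1.51, -1.55 and -1.50 at 0 h, 2.42, 2.30 and 2.32 at 6 h, 2.08, 2.20 and 2.15 at 12 h, and -1.47, -1.37 and -1.41 on the arrays labelled 24 h. The rise was 14.6-fold at 6 h (log2 3.87, SE 0.0478, adjusted p = 5.43e-12 by limma) and 12.7-fold at 12 h (log2 3.67, SE 0.0478, adjusted p = 3.31e-12). The deposited ratios were 0.995, 1.05 and 1 at 0 h, 10.3, 9.43 and 9.54 at 6 h, 6.24, 5.41 and 5.27 at 12 h, and 2.04, 1.84 and 1.91 at 24 h. They fell in order from 6 to 24 h without overlap. The log2 change in the table was 3.27 at 6 h, 2.47 at 12 h and 0.93 at 24 h (SE 0.0724 each), the last under 2-fold and called only with slide as a block (1.19).

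Il18, whose product drives interferon gamma production by lymphocytes, rose in steps in the scanner values. They were 0.15, 0.13 and 0.17 at 0 h, 1.38, 1.18 and 1.30 at 6 h, 2.76, 2.75 and 2.70 at 12 h, and 0.17, 0.17 and 0.20 on the arrays labelled 24 h. The rise was 2.19-fold at 6 h (log2 1.13, SE 0.0490, adjusted p = 1.07e-08 by limma) and 6.02-fold at 12 h (log2 2.59, SE 0.0490, adjusted p = 2.52e-11). The deposited ratios of Il18 were 1, 0.937 and 1.06 at 0 h, 1.47, 1.33 and 1.33 at 6 h, 1.01, 1.01 and 0.917 at 12 h, and 1.04, 1.05 and 1.10 at 24 h. Only the 6 h columns lay wholly above those of 0 h there. The table's log2 change was 0.46 at 6 h, -0.03 at 12 h and 0.09 at 24 h (SE 0.0662 each), and none was called. The difference between the 2 sources was not tested.

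Il33, an alarmin stored in the nucleus, had different courses in the 2 sources. It was not well above background on any array of 0 h or labelled 24 h, and its scanner values were 0.31, 0.17 and 0.20 at 6 h and 2.68, 2.59 and 2.58 at 12 h. Il33 was at least 26.5-fold higher at 6 h (adjusted p = 1.05e-06 by limma) and at least 139-fold higher at 12 h (adjusted p = 6.71e-08). The p-values again come from the fit to background values at 0 h. They add no support, since the filter on dim probes fixed the difference in advance. The measured values of Il33 on the arrays labelled 24 h were -6.67, -6.85 and -4.58.
The deposited ratios of Il33 were 1, 177 and 0.89 at 0 h, 1.78, 1.76 and 1.28 at 6 h, 1.75, 2.49 and 2.13 at 12 h, and 1.49, 1.11 and 0.871 at 24 h. The value of 177 belongs to 0 h replicate 2, whose scanner array read -5.86, close to the -5.74 and -6.15 of the other two. That column set the result: the table's 12 h change was -1.36 (SE 1.63, adjusted p = 0.468), and without it the change was 1.16 (SE 0.24, adjusted p = 0.00207), called higher. Without it the changes at 6 h and 24 h were 0.75 and 0.26, against -1.77 and -2.26 with it. The normexp correction gave scanner changes of 2.64 and 4.81 for Il33 and 4.26 and 4.59 for Il1f6 at 6 and 12 h, against fitted changes of 6.15, 8.53, 7.98 and 8.41, since the 0 h signals of both genes were background.

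**Figure D3:**
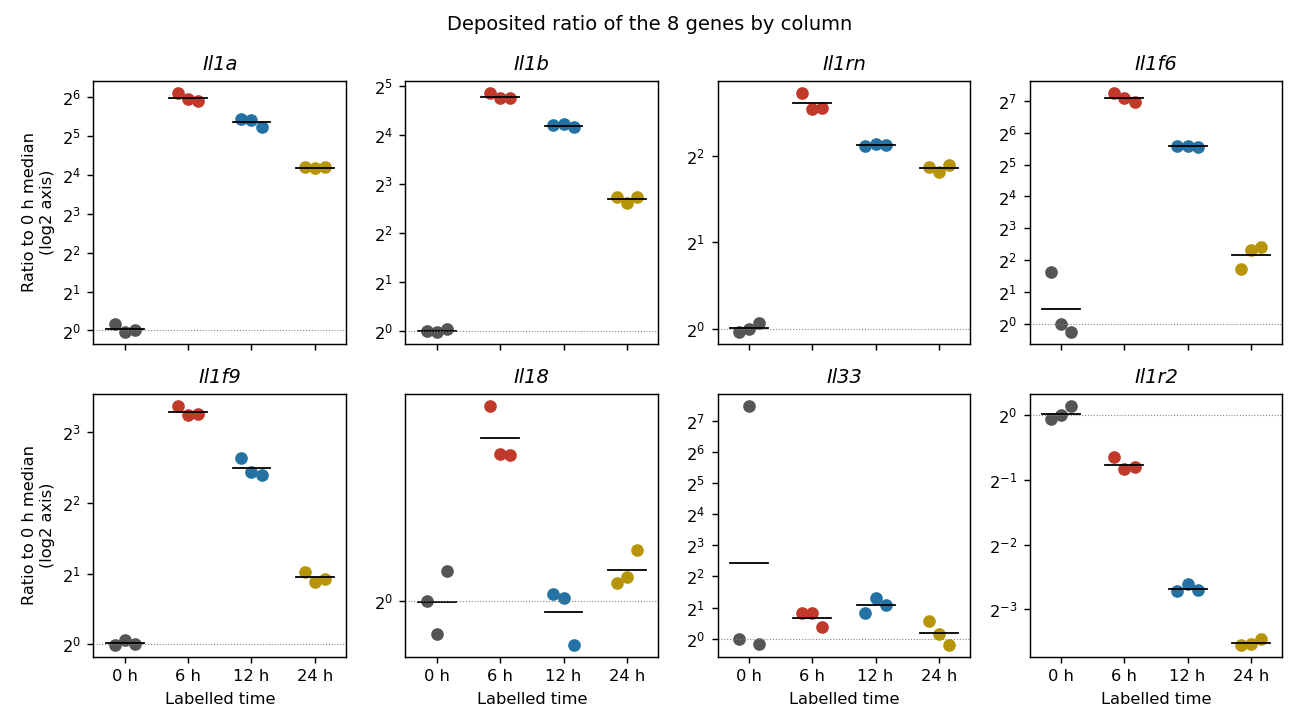
Ratios of the 8 genes in the authors' deposited table by labelled time, 1 point per column and a bar at the geometric mean, on a log2 axis with a dotted line at 1. Il1a, Il1b, Il1rn, Il1f6 and Il1f9 have their highest ratios at 6 h, Il1r2 drops at each time, and 1 of the 0 h columns of Il33 lies at 177. The Il1b probe was saturated on the scanner arrays of 6 and 12 h, and whether this affected the table's order of these times is not known.

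The change from 6 to 12 h separated the members in the scanner values. Il1b was saturated on every array of both times and could not be compared. Of the other 7 members, Il18 and Il33 were the only 2 called, both higher, against 6.99% of all genes called and 4.88% called higher. Il18 rose a further 2.74-fold (log2 1.45, SE 0.0490, adjusted p = 9.16e-09 by limma) and Il33 a further 5.24-fold (log2 2.39, SE 0.479, adjusted p = 0.00227). On slide 2, which held arrays of both times, the 12 minus 6 h difference of 2 arrays against 2 was 1.52 for Il18 and 2.45 for Il33, and between -0.17 and 0.81 for the other 5 members that were not saturated. Among the deposited ratios, 2 of 8 members were called, Il1f6 and Il1r2, both lower, against 5.8% of all genes called and 2.72% called lower. Il1r2 fell by 1.92 (SE 0.0699) and Il1f6 by 1.51 (SE 0.405, adjusted p = 0.0116). The Il1f6 call was lost with quantile normalization (-1.89, adjusted p = 0.173) and with slide as a block (-1.42, adjusted p = 0.071). Il18 changed in the opposite direction in the table, by -0.49 (adjusted p = 0.000186 by limma), under 2-fold and not called. The table's change of Il33 over this step was 0.41 (SE 1.63, adjusted p = 0.859), also not called.

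On the arrays labelled 24 h, 0 of 8 members differed from 0 h by the limma rule, against 0.837% of all genes, and 2 of 8, Il1f9 and Il1r2, had an unadjusted p under 0.05. Their log2 changes were 0.11 and -0.10, and those of Il1a, Il1b, Il1rn and Il18 lay between -0.04 and 0.04. Il1f6 and Il33 were background in both groups, so no change can be given for them. Against 12 h, the arrays labelled 24 h were lower in 7 members, Il1f6 and Il33 with signals at background, and higher in Il1r2, where 31% of all genes were called. In the table, 5 of 8 members were called at 24 h against 0 h, with 26.3% of all genes called: Il1a, Il1b, Il1rn and Il1f6 were higher and Il1r2 lower. Of the 6 members measured at 0 h, the table called 3 higher and 1 lower at 24 h. From 12 to 24 h the table called 4 of 8 members lower, Il1a, Il1b, Il1f6 and Il1f9, against 4.57% of all genes called and 3.17% called lower. Il1a fell by 1.17 there, and by 0.99, just short of 2-fold, with the columns centred on their median or quantile normalized. The comparisons with 0 h share their 0 h samples, and those with 12 h share the 12 h samples.

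**Figure D4:**
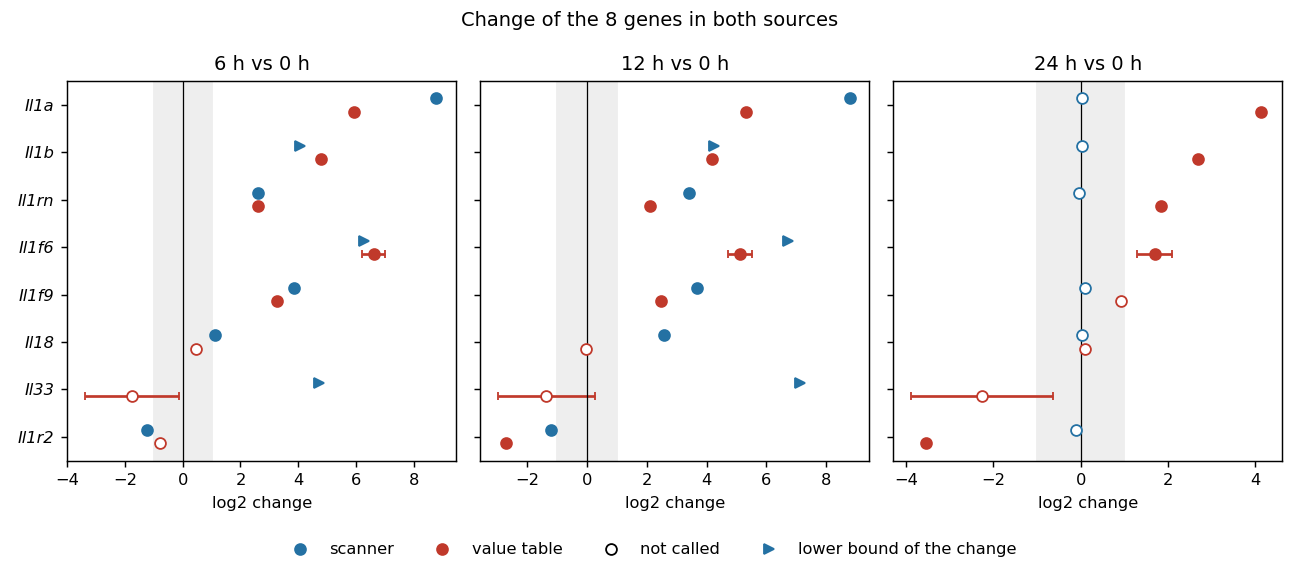
Log2 change of the 8 genes against 0 h in the scanner values (blue) and the deposited table (red), with SE bars from the limma fit (hidden where smaller than the point), n = 3 against 3. Filled points were called, open points were not, arrowheads are lower bounds of the size of a change, and grey marks changes under 2-fold; the scanner changes of Il1f6 and Il33 at 24 h are left out because both groups were background. At 24 h the blue points lie near 0 and the red points of Il1a, Il1b, Il1rn and Il1f6 lie above 1.

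Slides and times overlapped only in part. Slide 1 held the 0 h arrays and 6 h replicate 1, slide 2 held 6 h replicates 2 and 3 and 12 h replicates 1 and 2, and slide 3 held 12 h replicate 3 and the arrays labelled 24 h. Within slide 1 the 6 minus 0 h log2 difference was 8.90 for Il1a, 4.07 for Il1b, 2.64 for Il1rn, 3.94 for Il1f9, 1.22 for Il18 and -1.20 for Il1r2, with Il1b saturated at 6 h. These values rest on 1 array of 6 h against the same 3 arrays of 0 h that enter the pooled values, so they are not independent of those. They differ from the pooled values by at most 0.11. No slide held both 0 h and 12 h arrays, or both 0 h arrays and arrays labelled 24 h.

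The receptors of the family mostly fell. Of the 8 genes listed as receptors and soluble binders, 7 were tested, and Il1rl2, the interleukin 36 receptor, was in no group well above background on all arrays. In the scanner values 1 was higher and 4 lower at 6 h, and 2 higher and 4 lower at 12 h, where 15.9% and 16.9% of all genes were called lower, with a median log2 change of -1.88 and -2.53 against -0.06 and -0.03 over all genes. The table called 1 higher and 5 lower at each time, where 11.8% and 12.1% of all genes were called lower. Il1rl1, which encodes the interleukin 33 receptor ST2, fell by 3.29 and 3.57 at 6 and 12 h in the scanner values (SE 0.036), with changes of -4.13 and -5.66 in the table (SE 0.079). The interleukin 18 receptor gene Il18r1 was called lower at 6 h, where only 1 of 3 arrays was well above background, with scanner values from -4.35 to -2.81 against -0.34 to -0.28 at 0 h. It was at least 20.0-fold lower at 12 h, where no array was well above background, and its table changes were -2.44 and -3.01. Il18rap, its partner, fell by 1.88 and 2.53 in the scanner values, and Sigirr, a negative regulator of the family, fell by 2.48 and 2.57.
Il18bp, the soluble binder of interleukin 18, rose by 1.42 at 6 h and 3.21 at 12 h in the scanner values (SE 0.050) and by 1.57 and 1.88 in the table. Il18 itself was called higher in the scanner values and not in the table, where its 6 h change of 0.46 was under 2-fold, whereas its binder was called in both. For the interleukin 1 receptor pair the sources gave different values. Il1r1 had scanner changes of -0.10 and 0.38, neither called, and table changes of -1.84 (called) and -0.57. Il1rap had scanner changes of 0.67 and 1.14, the second called but 0.55 with normexp, and table changes of -0.42 and -1.36, the second called.

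**Figure D5:**
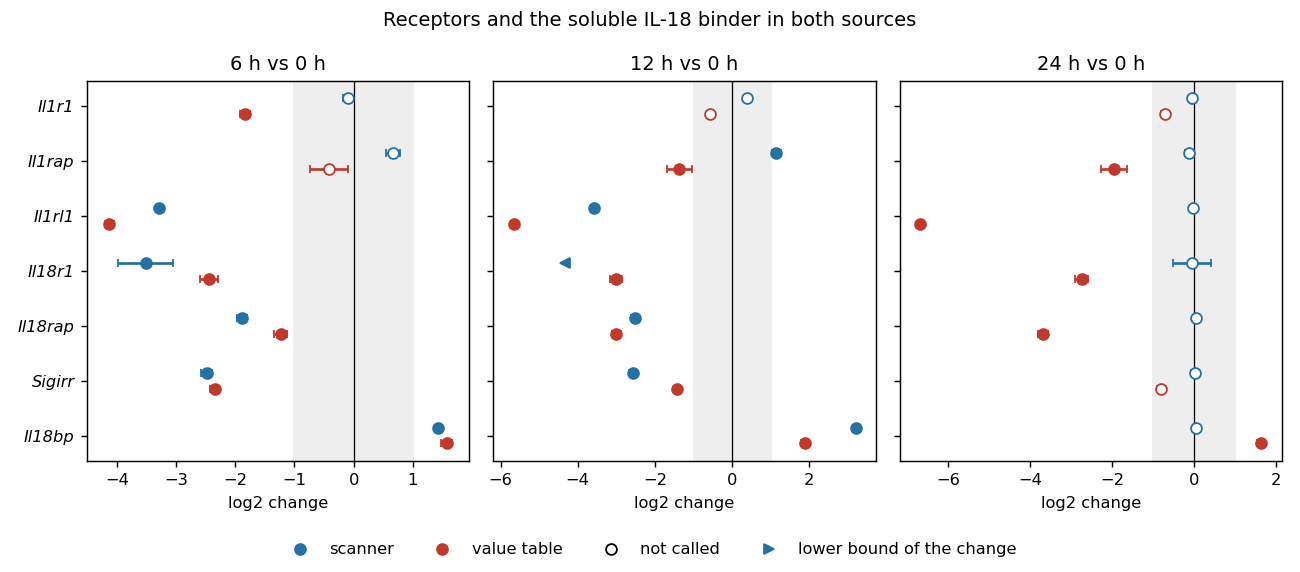
Log2 change against 0 h of 6 receptor genes and the soluble binder gene Il18bp in the scanner values (blue) and the deposited table (red), with SE bars from the limma fit, n = 3 against 3; filled points were called and the arrowhead is a lower bound of the size of the fall, and the Il18r1 point at 6 h rests on 1 of 3 arrays well above background. Il1rl1, Il18r1, Il18rap and Sigirr lie below -1 at 6 and 12 h in both sources and Il18bp above 1.

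Among the 11 signalling genes below the receptors, the scanner values called 6 higher and 2 lower at 6 h and 5 higher and 1 lower at 12 h, and the table called 3 higher and 0 lower at both. Over all genes 26.1% and 30.6% were called in the scanner values and 25.1% and 27.8% in the table, so the table's share of this list was near the background. Irak3, a brake on the pathway found in myeloid cells, rose by 2.45 and 2.52 in the scanner values and by 2.56 and 2.79 in the table. Mapkapk2, a kinase that helps stabilise cytokine mRNA, rose by 1.71 and 1.76 in the scanner values and by 2.01 and 1.79 in the table. Irak2, a kinase of the receptor complex, was the third gene called in the table, with 1.73 and 1.47. Traf6 and Myd88 rose in the scanner values, by 1.45 and 1.73 and by 1.33 and 2.08, and their table changes of 0.73 and 0.81 and of 0.80 and 0.26 were not called. Tab1 fell by 1.09 and 1.01 and Irak4 by 1.09 at 6 h in the scanner values, and their table changes lay between -0.36 and 0.10. The Irak4 call was lost when probes were averaged (-0.97) and with normexp (-0.95), and the Tab1 call at 12 h with slide as a block (-0.88) or as a random block (-0.98) and without 0 h replicate 3 or 12 h replicate 3 (both -0.99).

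Genes of processing and release were mixed. Of 16 listed, 15 were tested, and the scanner values called 3 higher and 2 lower at 6 h and 5 higher and 1 lower at 12 h, against 5 higher and 3 lower and 4 higher and 3 lower in the table. The scanner counts of 5 and 6 called among 15 stand beside shares of 26.1% and 30.6% over all genes, and those of 8 and 7 in the table beside 25.1% and 27.8%. Casp4, the caspase that senses lipopolysaccharide in the cytosol, rose by 2.43 and 3.72 in the scanner values and by 2.58 and 2.20 in the table. Mefv, which encodes the inflammasome protein pyrin, rose by 1.79 and 2.89 in the scanner values and by 5.00 and 4.95 in the table. Nlrp3, the sensor of a widely studied inflammasome, rose by 1.50 and 1.56 in the scanner values, and in the table by 1.12 at 6 h, a call lost with centred columns (1.00) and with quantile normalization (0.76), with 0.24 at 12 h. Casp1 rose by 1.68 at 12 h in the scanner values and by 1.61 and 1.39 at 6 and 12 h in the table. P2rx7, the ATP receptor that triggers release of interleukin 1 beta, fell by 1.15 and 1.49 in the scanner values and had table changes of -0.09 and 0.68. Elane, a neutrophil protease, fell by 1.30 at 6 h in the scanner values, a call lost with normexp (-0.80), and by 1.21 and 3.49 at 6 and 12 h in the table, the first lost with quantile normalization (adjusted p = 0.108).

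All 12 genes listed as shared targets of the family were called higher in the scanner values at 6 and 12 h, and 12 and 11 of 12 in the table. Over all genes 26.1% and 30.6% were called at these times in the scanner values and 25.1% and 27.8% in the table. The list was chosen with earlier results of these data known. Ptgs2, the inducible prostaglandin synthase, was at least 991-fold higher at 6 h and at least 708-fold higher at 12 h, with table changes of 7.86 and 7.05. No Ptgs2 probe was well above background on any array of 0 h or labelled 24 h. Its difference from 0 h was thus fixed by the filter on dim probes, and its table changes rest on the same 0 h samples. Il6 was at least 653-fold and 727-fold higher, bounds because of saturation, with table changes of 6.71 and 6.25. Cxcl1, a neutrophil-attracting chemokine, rose by 9.53 and 8.59 in the scanner values and by 8.67 and 8.33 in the table. These genes also respond to other stimuli, and the part of the family's cytokines in their rise was not tested. Of the other family ligands, Il1f5 and Il1f10 were not well above background on any of the 12 arrays, and Il1f8 and Il1fa were not analysed here.

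Markers of other cells were measured because some members are also expressed by them. All 8 dendritic cell markers were well above background at 0 h, and 6 of 8 were so on all arrays of 6 h and of 12 h. Their summed linear level, relative to the 75th percentile, was 459 to 481 at 0 h, 449 to 507 at 6 h and 482 to 544 at 12 h. Cd209a, a C-type lectin of dendritic cells, was not well above background on any array of 6 or 12 h, and its mean table ratio there was 0.010. The lowest ratio in each 6 and 12 h column was 0.01, so the size of that fall may be a bound. All 9 neutrophil and precursor markers with a probe were well above background in every group, and they summed to 302 to 311 at 0 h, 288 to 333 at 6 h and 341 to 388 at 12 h. That sum is mostly S100a8 and S100a9, the latter saturated on all arrays. By the limma rule 0 of the 9 were higher and 3 lower at 6 h and 1 lower at 12 h, and in the deposited table the test called 4, 5 and 8 lower at 6, 12 and 24 h, with medians of -0.47, -1.13 and -1.65. Called lower over all genes were 15.9% and 16.9% at 6 and 12 h in the scanner values, and 11.8% and 12.1% in the table. At 24 h the table called 26.3% of all genes in either direction. The 4 macrophage markers with a probe summed to 139 at 0 h, 139 to 155 at 6 h and 264 to 291 at 12 h. The step to 12 h was that of Fcgr1, an Fc receptor, whose mean scanner value went from 3.90 to 7.06, while Adgre1 went from 7.04 to 7.11 and C1qa stood at 1.92, below its 3.66 at 0 h. In the table none of the 4 was higher and 3 were lower at 12 h (median -1.34), where 12.1% of all genes were called lower. Fcgr1 stood there at a mean ratio of 0.142. The 5 stromal markers summed to 0.181 to 0.216 at 0 h and 0.924 to 1.03 at 6 and 12 h. All 3 that were tested were higher in the scanner values at both times, Dcn and Lum from signals at background, and 1 and 2 of the 3 in the table. The shares of all genes called in either direction were 26.1% and 30.6% in the scanner values and 25.1% and 27.8% in the table. No probe of the defining Col1a1 was well above background on any array, and 1 probe of Col3a1 was so on 1 array labelled 24 h and on no other. The 5 epithelial markers summed to 0.763 to 2.41 at 0 h and 0.510 to 0.715 at 6 and 12 h, the 6 lymphocyte markers to 3.62 to 3.79 and 0.620 to 1.43, and the 7 mast cell and basophil markers to 5.63 to 5.88 and 5.39 to 6.30. Of the 6 mast cell and basophil markers tested, the table called 1 lower at 6 h and 1 lower at 12 h. At 24 h it called 5 lower and 1 higher, with a median of -1.27, where 26.3% of all genes were called. The part of these cell types in the results was not tested.

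The genes most like each member over the 12 scanner arrays were the 3 with the highest Pearson r of the log2 value. These r follow the split of the arrays into 6 and 12 h on one side and 0 h with those labelled 24 h on the other, so 883 to 1903 of 11359 named genes had r above 0.95 with a given member. Il1a was closest to Il6, Exoc3l4 and Inhba, Il1b to Serpinb2, Rab10 and Ccl3, and Il1rn to Cacnb3, Ppa1 and Rab8b. Il1f6 was closest to Smap2, Fpr2 and Src, and Il1f9 to Pik3r1, Tnf and Treml4. Il18 was closest to its own binder gene Il18bp, with r = 1.00 in the scanner values and 0.28 over the 12 table columns, and then to Ifit1 and Pfkfb3. Il33 was closest to Gldc, Creb5 and Dcaf10 and Il1r2 to Mzt2, Selenoh and Susd4. For Il1a, the r of Il6 and Inhba over the table columns was 1.00 for both, and for Il33 the r of Gldc there was -0.38.

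In the order of protein-coding genes of the same RefSeq annotation, Il1a and Il1b are neighbours on chromosome 2. Il1f9 and Il1f6 are also neighbours there, between Il1f8 and Il1f5, and Il1rn follows Il1f10. These 5 members on chromosome 2 were the 5 called higher at 6 and 12 h in both sources, with the Il1f6 difference from 0 h fixed by the filter on dim probes. Without 0 h replicate 2 the table also called Il33 higher at 12 h. A link between position and change was not tested. Il18 lies on chromosome 9 and Il33 on chromosome 19, and Il1r2 lies next to Il1r1 on chromosome 1. Within the pair Il1a and Il1b, each rose at 6 h. The table gave 61.3-fold for Il1a and 27.5-fold for Il1b, whose probe was saturated on the 6 h arrays. Within the pair Il1f6 and Il1f9, the table gave 98.3-fold and 9.63-fold at 6 h. The first of these is set against 0 h samples in which Il1f6 was at background on the arrays.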

How the data were processed

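Per the file headers, the scanner intensity values were made with Agilent Feature Extraction 9.1.3.1, and the processed signal used here was already background-subtracted by that software. The authors' deposited table gives linear ratios, each probe being divided by its own median over the 3 columns of 0 h. The submitters' genome build is not stated in what was read here.

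Control spots and the 732 spots marked as outliers were left out. Log2 signals were taken relative to the 75th percentile of the non-control spots, which was 339 to 472 intensity units, and 50.9% to 59.6% of spots were well above background. Probes well above background on all arrays of any 1 group were kept, which left 23478 probes, and the brightest kept probe stood for its gene. The same probes were used in the table, as log2 ratios. Names came from RefSeq accessions, and gene names in the array files can be old.

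Comparisons used limma 3.58.1 (R 4.3.3), in a fit of 4 group means to 12 arrays with 8 residual degrees of freedom, and Benjamini-Hochberg adjustment over 18392 genes. The fit was tested on simulated data. For a probe not well above background, bounds used the higher of its own signal and the lowest detected signal of each array. Normexp, with an offset of 50, was run on median in place of mean spot signals, which the files used here lack. Values by cell type marker use the brightest probe. Tables and figures were made with Python 3.11.15, pandas 2.3.3 and matplotlib 3.10.9.

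All 8 members are named. From each pathway list, the 3 strongest called rises and the 3 strongest called falls at 6 h and at 12 h, or fewer, are named, with the other receptors and Irak2 added after their values were seen. The members and lists were chosen with earlier results of these data known.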

Additional observations from a re-analysis of the deposited data

How the results depend on the processing

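Each comparison was repeated with other scalings, background correction, filters, probe rules, slide terms and with each replicate left out. Of 1598 changes of single members under these settings, 1590 stayed on their side of the threshold with no called change turning its sign, 6 lost the call, 1 gained it and 1 reversed. The reversal was the table's Il33 change at 12 h, which ran from -2.66 to 1.16 over the columns left out, the latter without 0 h replicate 2. The count of members called at 12 h against 0 h in the table ran from 6 to 7 for the same reason, and all other counts kept their value with any 1 sample left out. Between 6 and 12 h the scanner count fell from 2 to 1 with probes well above background on all 12 arrays, which left 6 members tested, and the table count fell from 2 to 1 with quantile normalization and to 1 with slide as a block. The scanner excess of Il1a over Il1rn was 6.34 with quantile normalization and 5.13 with normexp at 6 h, 5.50 and 4.35 at 12 h, and -0.17 with normexp at 24 h. The excess of Il1b was 0.90 with quantile normalization and 0.78 with normexp at 12 h, and 0.026 with normexp at 24 h. The cause of these shifts was not tested. With each sample of the groups left out, a check added after the data were seen, the scanner excess of Il1a ran from 6.14 to 6.23 at 6 h and from 5.35 to 5.43 at 12 h. The fitted change of Il33 from 12 h to the arrays labelled 24 h was -8.65 on the log2 scale, and -9.38 without 24 h replicate 3, since its values there were background. Quantile normalization lowered the table changes of Il1a at 12 h to 4.52, of Il1b to 3.43, of Il1f6 to 4.0 and of Il1f9 to 1.79. Centring the table columns moved the median log2 change of all genes at 12 h from 0.22 to -0.05, and the percentile over probes well above background on all arrays moved that of the scanner values from -0.03 to -0.16. The replicate numbers did not pair the samples (mean r of deviations between same-numbered samples -0.04 to 0.04), and with a replicate block the counts at 6, 12 and 24 h against 0 h were 8, 8 and 0 in the scanner values and 5, 6 and 5 in the table, with no member's call changed. Saturation at the top and background at the bottom of the scale limit the changes of Il1b, Il1f6 and Il33.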
